A study of Homo sapiens with 10 samples.

Results

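H4K16ac regions that had an island at both times of doxycycline and none without it were described in immortalized human astrocytes carrying an inducible mutant IDH1. An island is a stretch in which a peak caller, SICER, found more antibody reads than the control predicts. Islands of the 3 H4K16ac lists on chromosomes 1 to 22 that overlapped or touched were joined into 113024 regions. Of these, 11213 held an island at 2 days and at 7 days and none without doxycycline, and they are called the 2-and-7-day regions. They were chosen by the presence or absence of H4K16ac islands in the 3 lists, so their H4K16ac values are a description and carry no test.

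The assay was CUT&RUN, in which an antibody brings a nuclease to chromatin in permeabilised cells and the cut fragments are sequenced. The cells were a fetal astrocyte line immortalised with SV40, grown with serum and EGF. The untreated cells are labelled WT IDH1 with no doxycycline (noDox), and the treated cells are labelled IDH1-R132H with doxycycline at 1 µg/ml for 2 days (2d-Dox) or 7 days (7d-Dox). H4K16ac, H3K9ac and H3K27ac were each profiled in 1 library per time, and 1 library with a secondary antibody linked to HRP, from untreated cells, was the control of every list. The labels do not say whether the inducible line is a clone. Cells given doxycycline but lacking the mutant gene were not among the libraries, so doxycycline, time in culture and IDH1-R132H cannot be told apart. Astrocyte markers were not checked, since no gene annotation on the files' build, hg19, was used here.

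Acetylation of lysine 16 on histone H4 removes a positive charge that helps neighbouring nucleosomes stack, and the mark is laid down mainly by KAT8 in its MSL and NSL complexes. H3K27ac, written by p300 and CBP, and H3K9ac, written by GCN5 and PCAF, sit at active promoters and enhancers. IDH1-R132H turns 2-oxoglutarate into 2-hydroxyglutarate, which inhibits dioxygenases such as the TET enzymes and the JmjC histone demethylases. The series addresses histone acetylation after induction of the mutant enzyme.

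The 3 H4K16ac libraries differed in size. Relative to the untreated library, the library at 2 days was 1.22 times and that at 7 days 3.11 times as large, so the 2-and-7-day regions are absent from the shallowest list. The H3K9ac libraries were 1.37 and 1.60 times the size of their untreated library, and the H3K27ac libraries 0.791 and 0.375 times. The smallest H4K16ac island held 11 reads without doxycycline, 14 at 2 days and 33 at 7 days. With 1 library per mark and time there is no replicate error and no test between times. Intervals are exact 95% intervals (Clopper-Pearson for shares, order statistics for medians) that take regions as independent and cover counting error only.

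The 2-and-7-day regions were 9.92% of all H4K16ac regions. The converse pattern, an island without doxycycline and at 7 days but none at 2 days, was held by 12730 regions, or 11.3% (11.1 to 11.5). A further 34578 regions (30.6%) were in all 3 lists and 20268 (17.9%) only in the list without doxycycline. Regions only at 7 days numbered 16896 and regions only at 2 days 12279, and 5060 were in the lists without doxycycline and at 2 days. Of regions present at 2 and 7 days, 24.5% (24.1 to 24.9) lacked an island without doxycycline. Of those present without doxycycline and at 7 days, 26.9% (26.5 to 27.3) lacked one at 2 days, and of those present without doxycycline and at 2 days 12.8% (12.4 to 13.1) lacked one at 7 days. The order of the first 2 classes depended on how many islands were taken: with the same number from each list, 13969 regions were in the 2-and-7-day class and 11168 in the converse class.

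**Figure D1:**
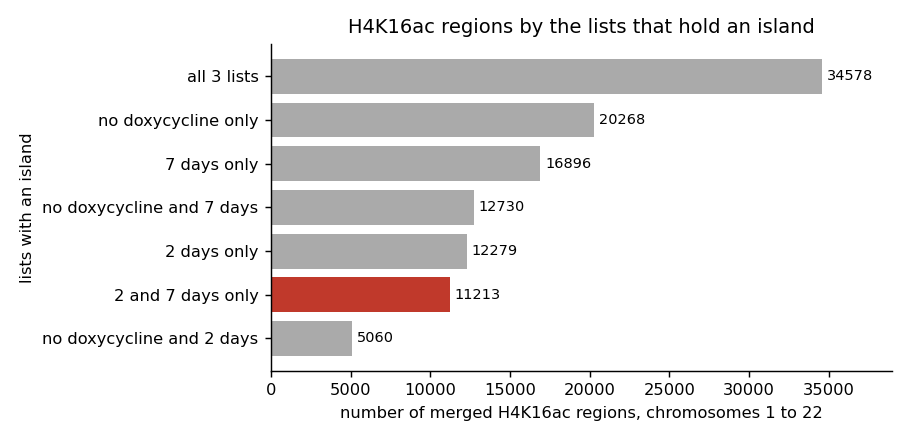
Number of merged H4K16ac regions (horizontal axis) for each combination of lists that hold an island (vertical axis). The 11213 regions with an island at 2 and 7 days only, in red, are slightly fewer than the 12730 with an island without doxycycline and at 7 days.

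The 2-and-7-day regions were intermediate in length. Their median length was 5200 bp, with quartiles of 4000 and 7200 bp and a maximum of 31400 bp, and together they spanned 67.0 Mb. Regions in the converse class had a median of 4800 bp, those in all 3 lists 9600 bp and those only without doxycycline 1600 bp. The 2-and-7-day regions held a median of 43 reads at 2 days (quartiles 33 and 61, range 16 to 322) and 130 at 7 days (quartiles 95 and 185, range 43 to 900). They took up 13.5% of the islands and 10.7% of the island reads of the 2-day list, and 13.6% and 9.19% of those of the 7-day list.

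The highest island of a 2-and-7-day region stood lower over the control than that of a region in all 3 lists, but the ratio of summed reads was not lower at 2 days. The authors' fold over HRP, taken as the highest island of each region, had a median of 3.31 at 2 days and 2.16 at 7 days, against 4.08 and 2.37 in regions of all 3 lists, of which fewer had a single 2-day island (58.1% against 89.8%). Per kb of called length and scaled by library size, the antibody gave 4.90 reads at 2 days and 3.69 at 7 days, against 5.34 and 4.24. The HRP library gave 1.71 reads per kb in their 2-day islands and 1.91 in those of regions in all 3 lists, and 14.8% against 8.23% of regions had no HRP read there. At 7 days the HRP values were 1.79 and 1.99 reads per kb. All antibody reads over all HRP reads, scaled by library size, gave a ratio of 2.86 in the 2-and-7-day regions and 2.79 in regions of all 3 lists at 2 days, and of 2.06 and 2.13 at 7 days.

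Because islands that overlapped or touched were joined, some shared position of the 2-day and 7-day islands is built into the regions. Of the length of 2-day islands in the 2-and-7-day regions, 78.3% was also in a 7-day island, and of the 7-day length 50.4% was in a 2-day island. In 43.0% of the 2-and-7-day regions the 2-day islands lay wholly inside the 7-day islands, and 96 regions were joined by islands that shared no base. A single island made up the 2-day signal in 89.8% of them and the 7-day signal in 95.5%. The islands covered 56.4% of the regions' length at 2 days and 87.8% at 7 days.

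The summed reads at 7 days were slightly above those at 2 days after scaling by library size, and lower per kb of island. The median log2 ratio of 7 over 2 days was 0.18 (0.16 to 0.19), with quartiles of -0.24 and 0.63, and 0.31 (0.30 to 0.32) in regions of all 3 lists. Per kb of called length these became -0.41 and -0.35. That length at 7 days was a median 1.5 and 1.57 times that at 2 days. At least 2-fold more reads at 7 days were found in 1344 of the 2-and-7-day regions (11.99%) and at least 2-fold fewer in 367 (3.27%), against 17.3% and 2.20% of regions in all 3 lists and 7328 (16%) and 1127 (2.46%) of the 45791 regions of both classes. Scaling by the reads in islands turned the median to -0.26 and the counts to 444 (3.96%) with more and 1318 (11.8%) with fewer reads, against 6.87% and 8.27% of both classes. Per kb of island 0 regions had at least 2-fold more reads, which allows up to 0.0329%, and 650 (5.80%) had at least 2-fold fewer, against 0.00437% and 3.83% of both classes. The direction thus rests on the measure.

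Scaled to the untreated library, the reads of most 2-and-7-day regions would have passed the p-value of the untreated list. Their 2-day reads were scaled to the size of the untreated library, giving a median of 35.3 expected reads (quartiles 27.1 and 50.1, range 13.1 to 264). The lowest count that passes was the one at which the Poisson tail given the HRP reads reached the largest p-value deposited in that list, 0.0437, with the list's minimum of 11 reads as a floor, and its median was 19. The expected reads reached it in 11041 of 11213 regions, 98.5% (98.2 to 98.7), and were at least 2 times as high in 48.3%. With the 7-day reads the share was 91.3% (90.8 to 91.8). The caller's choice of windows before this step was not rebuilt here. The regions were chosen with islands that passed at 2 and 7 days over the same HRP library, which favours high counts at both times. Neither share is therefore independent of how the regions were chosen.

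The share of regions missing from the untreated list fell steeply with the reads expected there. Among regions present at 2 and 7 days it was 41.2% (40.2 to 42.3) at 20 to 30 expected reads, 28.5% (27.6 to 29.4) at 40 to 60, 10.1% (9.33 to 10.9) at 80 to 120, and 0.163% (0.0600 to 0.356) at 200 or more, which is 6 of 3670 regions. The converse class followed a like course. The share missing at 2 days, by the reads expected there from the untreated library, was 45.1%, 34.7%, 12.9% and 0.294% in the same classes of expected reads. At 20 to 30, 40 to 60 and 80 to 120 reads, regions were missing at 2 days more often than without doxycycline. Equal expected reads do not meet an equal threshold in the 2 lists. The smallest island held 14 reads at 2 days and 11 without doxycycline. Of the 2-and-7-day regions, 2805 had at least 50 expected reads and 263 at least 100.

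**Figure D2:**
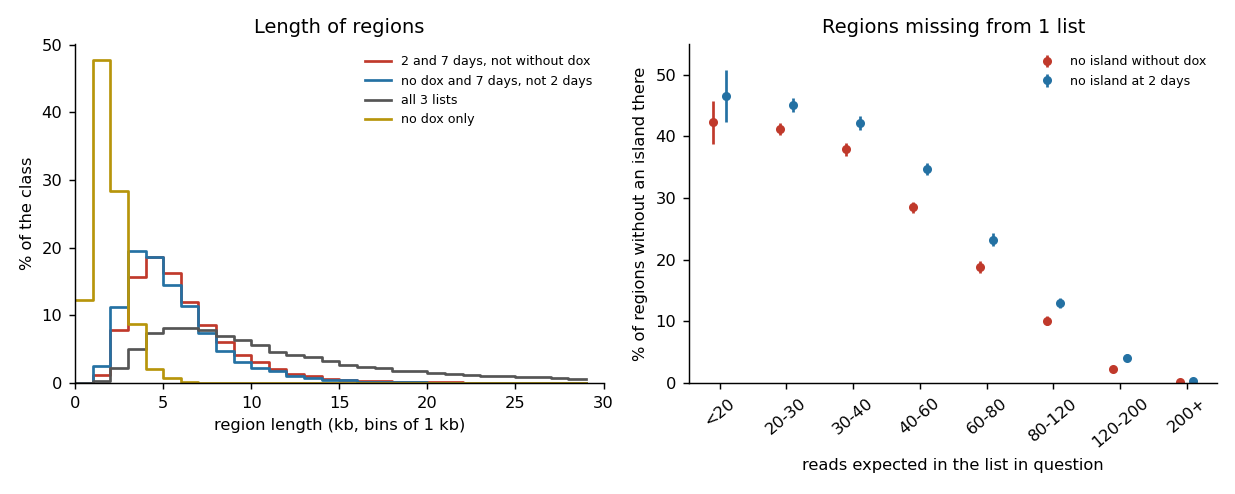
Left, length of regions in bins of 1 kb (horizontal axis) as a percentage of each class (vertical axis). Right, percentage of regions without an island in 1 list (vertical axis) by the reads expected there (horizontal axis), with exact 95% intervals; red points are regions present at 2 and 7 days, blue points those present without doxycycline and at 7 days, and both fall from over 41% at 20 to 30 reads to under 1% at 200 or more.

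Coordinates below are on hg19 and counted from 1. The 3 such regions inside the rule of at least 5 kb whose expected reads exceeded the lowest passing count by least were at 1q31.1 (chr1:189923601-189932400), 2q32.1 (chr2:185398601-185404000) and 6p25.1 (chr6:5311001-5316800). Each had 27 reads and 6 HRP reads at 2 days, or 22.2 expected reads against a lowest passing count of 22, and they had 239, 102 and 194 reads at 7 days. The 3 regions of all 3 lists whose untreated island had the highest p-value were at 17p12 (chr17:12564601-12570800), 17q25.3 (chr17:76407001-76419000) and 14q13.1 (chr14:35165601-35171600). Their untreated islands held 57, 57 and 60 reads with 18, 18 and 19 HRP reads, and the authors' p-values were 0.0428, 0.0428 and 0.0410.

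The 2-and-7-day regions with the most 2-day reads were wide stretches. Their scaled 2-day reads lay above the passing count, which choosing them by these same reads favours. At 4q28.1 (chr4:126255801-126287200), also the longest at 31.4 kb, 5 islands held 322 reads at 2 days and 2 islands held 900 at 7 days. That equals 264 and 289 reads at the untreated size, where 113 would pass with the control reads of the 2-day islands and 200 with those of the 7-day islands. An island without doxycycline began or ended 800 bp away. H3K9ac had no island there without doxycycline, and islands touching the region held 77 reads at 2 days and 246 at 7 days. H3K27ac signal of 231 reads touched the region without doxycycline but covered only 1.27% of it. No H3K27ac island touched it at 2 or 7 days, in libraries 0.791 and 0.375 times the size of the untreated one. At 5q22.3 (chr5:114601001-114623600) there were 305 reads at 2 days and 806 at 7 days, with 67 and 71 HRP reads, the most control reads among the 8 regions richest in 2-day reads. The 250.4 reads expected from 2 days stood nearest to the passing count, here 192, in proportion among the 8. H3K9ac islands covered 45.1%, 50.4% and 71.7% of the 5q22.3 region over the 3 times, and H3K27ac islands 17.7%, 9.73% and 0%.

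The region at 12q24.31 (chr12:123056801-123076400) had 298 reads over 17 HRP reads at 2 days and 599 over 21 at 7 days. The 245 reads expected from 2 days were the farthest above the passing count, 55, among these 8. Both other marks were present there at every time: H3K9ac islands covered 26.5%, 44.9% and 72.4% of it and H3K27ac islands 27.6%, 38.8% and 32.7%. At 21q21.1 (chr21:17233001-17252800) 269 and 586 reads were found at 2 and 7 days, and at 12p11.21 (chr12:30798201-30812200) 251 and 495. H3K9ac islands covered 84.3% of the 12p11.21 region without doxycycline, 80% at 2 days and 42.9% at 7 days, with no H3K27ac island.

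The remaining regions among the 8 with the most 2-day reads lay on chromosomes 4, 5 and 9. At 4q26 (chr4:120225001-120244400) there were 244 and 473 reads, and the nearest untreated H4K16ac island was 72.2 kb away, against 800 to 9800 bp for the other 7. At 5q23.3 (chr5:127635801-127657000) 243 and 653 reads were counted, and at 9p22.3 (chr9:15860201-15878200) 221 and 370. After scaling by library size, the 7-day reads were below the 2-day reads in 5 of these 8 regions and above them at 4q28.1, 5q22.3 and 5q23.3. Scaling by the reads in islands put those 3 below as well, with log2 ratios of -0.31, -0.39 and -0.37. All 8 were chosen by their 2-day reads, which favours a lower ratio of 7 over 2 days. Over all 2-and-7-day regions the median log2 ratio was 0.18 by library size and -0.26 by the reads in islands.

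The longest regions were covered more widely at 7 days than at 2 days, which was not particular to them. Called length at 7 days was a median 1.5 times that at 2 days in all 2-and-7-day regions. In regions of all 3 lists it was 1.57 times. Choosing regions by length also favours long 7-day islands. At 9p24.2 (chr9:3826001-3854200, 28.2 kb) 216 reads over 18200 bp at 2 days became 640 over 24400 bp. At 7q21.11 (chr7:84426601-84453200) 126 reads over 8400 bp became 607 over 23800 bp. At 4q21.3 (chr4:87511601-87537600) 64 reads over 3400 bp became 828 over 26000 bp. The log2 ratio of the summed reads was 2.34 after scaling by library size, with no allowance for the longer called stretch at 7 days. This region carried both other marks at every time, with H3K9ac islands over 46.9%, 47.7% and 56.2% of it. At 20q11.22 (chr20:32619201-32645200) 122 reads over 7000 bp became 767 over 25600 bp.

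**Figure D3:**
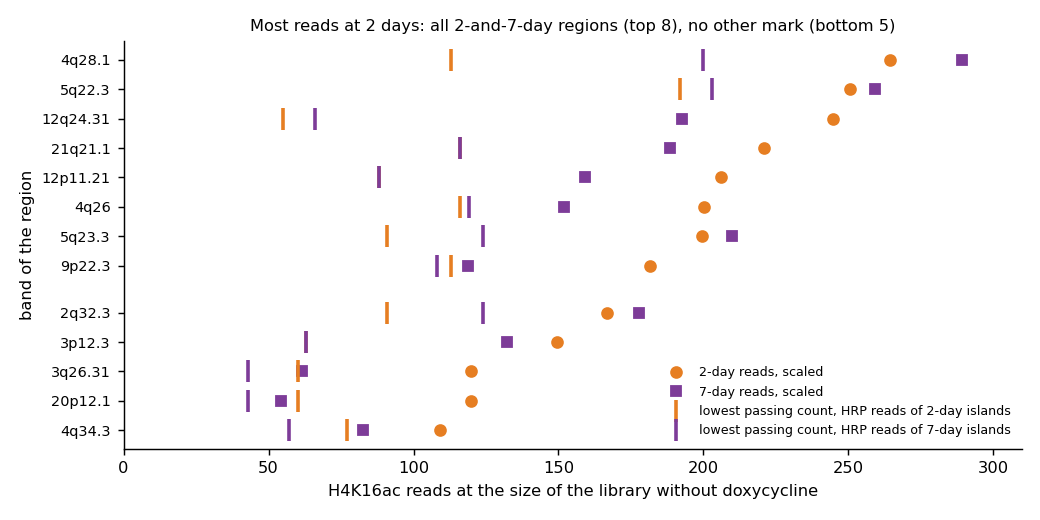
H4K16ac reads scaled to the size of the untreated library (horizontal axis) for the 8 2-and-7-day regions with the most 2-day reads and the 5 such regions without any island of the other marks, labelled by band (vertical axis). Orange circles are 2-day and purple squares 7-day reads. Ticks of the same colour are the lowest count that would pass without doxycycline given the HRP reads of the 2-day or 7-day islands (1 tick where both are equal). Every symbol lies right of the tick of its own colour, as for 54.3 reads against 43 from 7 days at 20p12.1. All regions were required to have an island at 2 and 7 days, which favours this for both symbols. Choosing them by their 2-day reads favours it further for the orange circles.

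H3K9ac was often present at the 2-and-7-day regions without doxycycline, at a share close to that of all H4K16ac regions. An H3K9ac island touched 49.2% of them (48.2 to 50.1) without doxycycline, 55.7% (54.8 to 56.6) at 2 days and 56.3% (55.4 to 57.2) at 7 days. Of all H4K16ac regions, 50.4% were touched without doxycycline and 54.7% at 7 days. Regions at 2 days only had 27.3% and 30.1%, those at 7 days only 33.1% and 37.54%, and those only without doxycycline 28.7% and 30.6%. Regions without doxycycline and at 2 days had 50.7% and 52.8%. The untreated H3K9ac library was the smallest of its 3. A like step was seen over the 3 times in the converse class, with 53.0%, 59.8% and 58.2%. In regions of all 3 lists, which were longer, the shares were 79.1%, 84.4% and 84.4%. By length covered, H3K9ac islands took 25.1%, 26.0% and 30.5% of the 2-and-7-day regions, against 28.4%, 29.7% and 33.0% of the converse class. Over the 3 times, 30.9% (30.1 to 31.8) of the 2-and-7-day regions were touched at every time and 22.3% (21.5 to 23.03) at none.

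The pattern that defined the 2-and-7-day regions was not common in H3K9ac at the same places. Of the 2-and-7-day regions 9.61% (9.07 to 10.2) touched an H3K9ac island at 2 and 7 days and none without doxycycline, which is 1078 regions, against 6.98% of all H4K16ac regions. The share was 8.87% (8.38 to 9.38) in the converse class, whose regions were of similar length, and 7.98% (7.70 to 8.28) in regions of all 3 lists. All the lists share 1 HRP library, and its part in islands of different marks at the same place was not tested.

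H3K27ac was present at fewer of the 2-and-7-day regions and at similar shares over the 3 times. An H3K27ac island touched 33.4% (32.6 to 34.3) without doxycycline, 32.9% (32.0 to 33.7) at 2 days and 35.1% (34.2 to 36.0) at 7 days. These shares were 43.7%, 42.1% and 46.1% in the converse class and 57.5%, 57.2% and 62.1% in regions of all 3 lists. Of all H4K16ac regions, 40.02% were touched without doxycycline and 41.4% at 7 days. Regions at 2 days only had 24.8% and 23.8%, those at 7 days only 27.6% and 27.6%, and those only without doxycycline 30.04% and 28.5%. Regions without doxycycline and at 2 days had 43.9% and 42.5%. The covered length of the 2-and-7-day regions went from 20.5% to 18.0% and 14.0%. In the converse class it went from 29.0% to 24.5% and 21.8%, while the H3K27ac library became smaller at each time. Of the 2-and-7-day regions 155, or 1.38% (1.17 to 1.62), touched an H3K27ac island at 2 and 7 days only, against 1.40% of all H4K16ac regions.

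**Figure D4:**
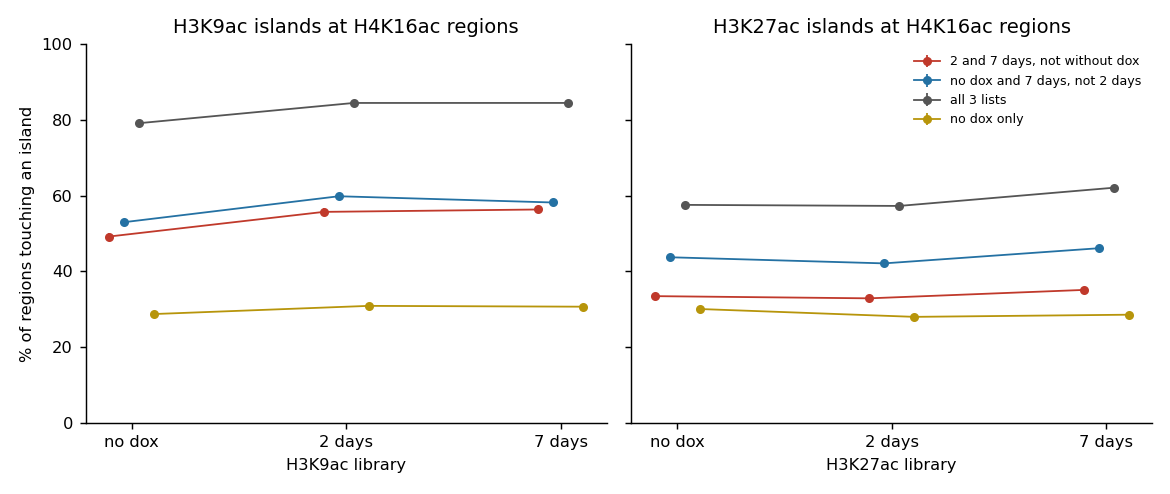
Percentage of H4K16ac regions that touch an island of H3K9ac (left) or H3K27ac (right) in each library of that mark (horizontal axis), by class, with exact 95% intervals that are smaller than the points. The red points, regions with H4K16ac islands at 2 and 7 days only, lie between 49.2% and 56.3% for H3K9ac and between 32.9% and 35.1% for H3K27ac.

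H3K9ac reads in islands at the 2-and-7-day regions had medians slightly below those without doxycycline. In 4589 H3K9ac regions that touched a 2-and-7-day region and had an island in both libraries, the median log2 ratio over no doxycycline was -0.16 (-0.18 to -0.15) at 2 days, and over 4570 it was -0.070 (-0.083 to -0.052) at 7 days. Over all such H3K9ac regions the medians were -0.12 and -0.042. At least 2-fold higher reads were found in 176 (3.84%) at 2 days and 245 (5.36%) at 7 days, against 4.70% and 5.82% of all. At least 2-fold lower reads were found in 480 (10.5%) and 322 (7.05%), against 9.49% and 6.22%. Per kb of island, at least 2-fold higher values were found in 26 (0.567%) and 11 (0.241%), against 0.837% and 0.302% of all, and at least 2-fold lower values in 42 (0.915%) and 99 (2.17%), against 1.14% and 1.98%. The comparisons at 2 and 7 days share the untreated library.

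For H3K27ac the median log2 ratios at the 2-and-7-day regions were -0.082 (-0.091 to -0.071) over 3589 regions at 2 days and -0.25 (-0.27 to -0.23) over 3289 at 7 days, against -0.12 and -0.14 over all H3K27ac regions. In regions touching the converse class they were -0.14 (-0.15 to -0.13) and -0.098 (-0.11 to -0.082). At least 2-fold higher reads were found in 20 (0.557%) and 40 (1.22%), against 0.465% and 2.18% of all, and at least 2-fold lower reads in 100 (2.79%) and 330 (10.0%), against 3.39% and 8.68%. Per kb of island the H3K27ac medians were 0.14 and 0.41 at the 2-and-7-day regions and 0.14 and 0.47 over all. On that measure at least 2-fold higher values were found in 82 (2.28%) and 471 (14.3%), against 2.82% and 17.5% of all, and at least 2-fold lower values in 13 (0.362%) and 12 (0.365%), against 0.467% and 0.298%. The sign of the H3K27ac values thus rests on the measure.

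Both other marks met at 4600 of the 2-and-7-day regions (41.0%), counting any time, H3K9ac without H3K27ac at 4118 (36.7%) and H3K27ac without H3K9ac at 361 (3.22%). The remaining 2134 (19.0%, 18.3 to 19.8) touched no island of either mark in any list. This share was lower in the converse class, 16.6% (15.98 to 17.28), and in regions of all 3 lists, 4.26%. It was higher in every other class, at 22.5% of regions without doxycycline and at 2 days and 35.6% of those at 7 days only. Regions at 2 days only had 45.5% and those only without doxycycline 45.0%. Islands of both marks at 2 and 7 days and of neither without doxycycline touched 17 2-and-7-day regions, 0.152% (0.0883 to 0.243). The share was higher in the converse class, with 34 or 0.267% (0.185 to 0.373), and in regions of all 3 lists, 0.211%. It was lower in the other classes: 0.119% without doxycycline and at 2 days, 0.106% at 2 days only and 0.0829% at 7 days only. Regions only without doxycycline had 0.0493%.

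Of those 17, the 5 with the most H4K16ac reads at 2 days were all in unstained bands and between 4.6 and 6.2 kb long. At 9p22.3 (chr9:15478401-15483800) H4K16ac had 76 reads at 2 days and 185 at 7 days. H3K9ac islands there held 45 and 197 reads and H3K27ac islands 32 and 27. At 4q21.3 (chr4:87426401-87431200), before the long region in that band, there were 69 and 107 H4K16ac reads, with H3K9ac islands of 77 and 163 reads and H3K27ac islands of 33 and 31. The regions at 3p21.1 (chr3:52687001-52691600), 3q21.3 (chr3:128476601-128482800) and 7q36.1 (chr7:149563401-149569000) had 58, 48 and 46 H4K16ac reads at 2 days and 165, 174 and 193 at 7 days. The last had no HRP read in its 2-day island. A touch could be slight. H3K27ac islands covered 3.57% of the 7q36.1 region at 2 days and 4.35% of the 3p21.1 region at 7 days. In the other cases among these 5 they covered between 12.9% and 58.1%.

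The 2-and-7-day regions without either other mark included wide ones in stained bands. The 5 with the most 2-day reads were at 2q32.3 (chr2:194300601-194319000), 3p12.3 (chr3:79146601-79161000), 3q26.31 (chr3:174342601-174353400), 20p12.1 (chr20:13437201-13448200) and 4q34.3 (chr4:178064801-178078200). They had 203, 182, 146, 146 and 133 reads at 2 days and 553, 412, 191, 169 and 257 at 7 days. The 7-day reads at 20p12.1, scaled to the untreated size, came to 54.3, where 43 would pass with the 13 HRP reads of its 7-day islands and 60 with the 19 of its 2-day islands.

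The 2-and-7-day regions with more H4K16ac reads touched H3K9ac more often, and H3K27ac about as often. In the 2804 with the fewest 2-day reads (16 to 33) H3K9ac islands touched 45.3%, 51.9% and 50.9% over the 3 times, and in the 2803 with the most (61 to 322) 58.4%, 66.5% and 68.4%. Median length rose from 4200 to 7800 bp between these 2 sets. H3K27ac touched 35.5%, 34.8% and 36.2% in the former and 34.3%, 34.4% and 36.9% in the latter.

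The 2-and-7-day regions lay in darker chromosome bands than the converse class, regions in all 3 lists and regions only without doxycycline, but not than regions at 2 days only. Giemsa-stained bands are richer in AT, poorer in genes and replicated later than the unstained ones. Stained bands of all 4 shades held 56.1% of the length of the 2-and-7-day regions, 45.2% of that of the converse class, 45.6% of that of regions in all 3 lists and 47.6% of that of regions only without doxycycline, and they make up 50.01% of the 22 chromosomes. The darkest bands held 20.5% of the length of the 2-and-7-day regions against 11.9%, 10.2% and 12.6%. Regions at 2 days only had 57.9% of their length in stained and 22.6% in the darkest bands, and regions at 7 days only 54.2% and 18.8%. The 2-and-7-day regions occurred at 46.4 per 10 Mb in the darkest bands and 41.5 in unstained bands, whereas the converse class went from 57.0 per 10 Mb in unstained to 32.2 in the darkest.

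The share of regions missing from the untreated list was highest in the darkest bands, while the share missing at 2 days was similar in unstained and darkest bands. Of regions present at 2 and 7 days, 21.4% (20.9 to 21.9) in unstained bands and 36.4% (35.2 to 37.7) in the darkest bands lacked an untreated island. Of those present without doxycycline and at 7 days, 27.2% (26.7 to 27.8) and 28.4% (27.2 to 29.7) lacked one at 2 days. The first difference held at like expected reads: 36.2% against 51.7% at 20 to 40 reads, 21.6% against 37.1% at 40 to 80, and 5.46% against 12.7% at 80 to 200. The share missing at 2 days was lower in the darkest bands at 20 to 40 reads, with 45.2% (44.0 to 46.3) against 40.4% (38.2 to 42.5). In the other 2 classes of reads the intervals overlapped. The shares were 31.6% (30.6 to 32.6) against 29.6% (27.5 to 31.7) at 40 to 80 reads. At 80 to 200 reads they were 9.91% (9.20 to 10.7) against 7.79% (6.20 to 9.64). Control reads in the 2-day islands of the 2-and-7-day regions were 1.73 per kb in unstained and 1.69 in the darkest bands, and antibody reads there 15.3 and 14.8 per kb. Base composition was not measured here, and its part was not tested.

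By chromosome, the 2-and-7-day regions made up 60.8% (56.8 to 64.7) of the 2 classes together on chromosome 13 and 57.2% (54.9 to 59.5) on chromosome 4. The share was 21.2% (17.4 to 25.4) on chromosome 19, where 90 such and 334 converse regions lay, and between 34.1% and 35.1% on chromosomes 16, 17, 20 and 22. The density of the 2-and-7-day regions ranged from 15.2 per 10 Mb on chromosome 19 to 55.1 on chromosome 4. Of those present at 2 and 7 days, the share that lacked an untreated island ranged from 15.6% (13.9 to 17.5) on chromosome 17 to 38.1% (35.1 to 41.2) on chromosome 13.

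**Figure D5:**
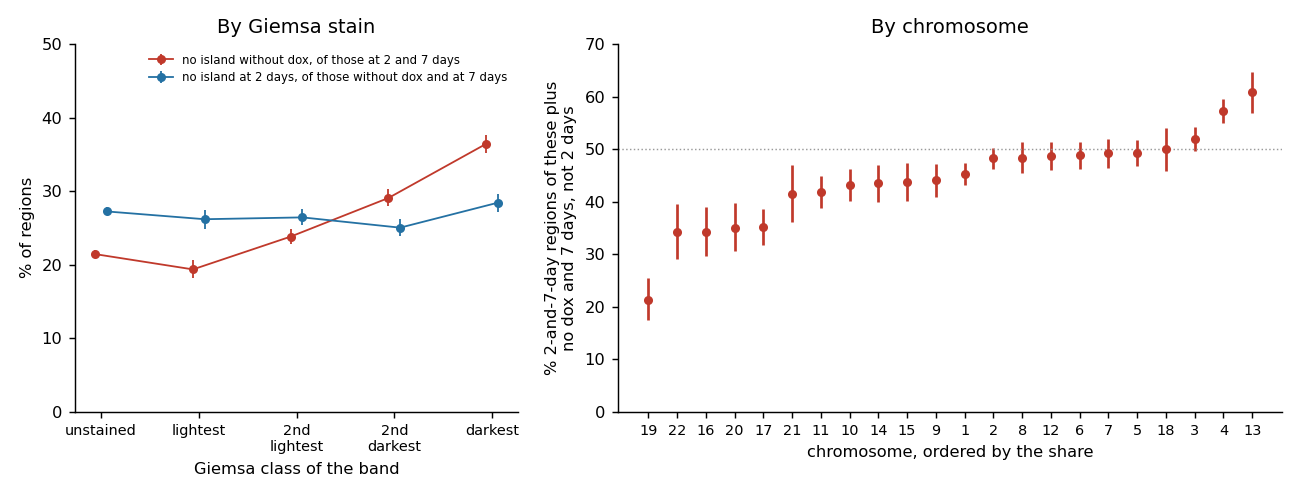
Left, percentage of regions (vertical axis) missing from the untreated list (red) or from the 2-day list (blue) by the Giemsa class of their band (horizontal axis). Right, 2-and-7-day regions as a percentage of the 2-and-7-day and converse classes together (vertical axis) on each chromosome (horizontal axis); bars are exact 95% intervals, the dotted line marks 50%, and chromosome 19 is lowest at 21.2% and chromosome 13 highest at 60.8%.

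Among 237 bands with at least 40 regions of the 2 classes, the 2-and-7-day regions were the majority in 98, and their share ran from 11.8% to 74.5%. The highest shares were at 4q22.3 (35 of 47 regions, 74.5%, 59.7 to 86.1), 3q13.11 (51 of 70, 72.9%) and 13q21.31 (50 of 69, 72.5%), and 4q28.3 held the most 2-and-7-day regions of the 10 highest, 109 of 160. Of these 10 bands 6 were of the darkest class and 1, 13q21.32, was unstained. The lowest shares were at 19p13.3 (8 of 68, 11.8%, 5.22 to 21.9), 4p16.3 and 12q13.13 (8 of 51 each, 15.7%), and 8 of the 10 lowest bands were unstained. These bands were chosen after their shares were seen, so the order of neighbours, whose intervals overlap widely, has no test.

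Islands of the other marks were fewer at the 2-and-7-day regions in the darkest bands than at those in unstained bands, with no steady fall from shade to shade. H3K9ac without doxycycline touched 53.9% of those in unstained and 35.8% of those in the darkest bands, and H3K27ac 38.2% and 20.9%. In the lightest stained bands the shares were higher than in unstained bands, at 59.1% and 43.8%. Within the unstained and darkest bands the converse class had 55.9% and 39.3% for H3K9ac and 47.6% and 27.5% for H3K27ac. The lower H3K27ac share of the 2-and-7-day regions was therefore present within each of these 2 classes of band too, where median lengths were 5000 and 4800 bp in unstained and 5800 and 5000 bp in the darkest.

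The 2-and-7-day regions were scattered among H4K16ac regions of the other classes. The nearest untreated island was a median of 4400 bp away (quartiles 1800 and 9600), against 3800 bp for the converse class. Within 2 kb of an untreated island lay 28.1% of the 2-and-7-day regions, and 2661 (23.7%) were over 10 kb and 194 over 50 kb from any. The next 2-and-7-day region on the chromosome was a median of 75000 bp away, and converse regions were 69600 bp from the next of their class.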

How the data were processed

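Reads were trimmed, aligned and called as islands by the authors, and the submitters' processing notes name cutadapt, FastQC, Bowtie2 2.3.5.1, Picard, SICER, deepTools and hg19. For the caller, its settings were not given in the sources used here. Each of 9 lists (3 marks, 3 times) gives, per the file headers, the antibody and HRP read count of an island, a p-value, a score and a log2 fold. From the values, the deposited log2 fold is the log2 ratio of the antibody count to the HRP count less a constant per list, where islands without an HRP read take 0.25. The deposited p-value is a Poisson tail: the chance of more antibody reads than counted when HRP reads, scaled to the library, set the mean, and the deposited score was not used. The constant gave each library's size relative to HRP. Lengths are whole multiples of 200 bp. Read totals of the libraries were not used here.

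Islands on chromosomes 1 to 22 were merged where they overlapped or touched, and reads and HRP reads were summed over a region's islands. Counts in a list where a region has no island are not known, so no reads are given there. An island of another mark touched a region where they shared at least 1 bp. Ratios between times used the mark's own merged regions with an island in both libraries. Bands of hg19 came from circlize 0.4.16 and were assigned by region midpoint. Regions named are the 8 with the most 2-day reads, the 5 longest and the 3 nearest each side of the threshold. Also named are 5 that touch islands of both other marks at 2 and 7 days and of neither without doxycycline. A last set is 5 that touch no island of either mark. Each set of 5 by marks has the most 2-day reads of its kind. The computations used Python 3.11.15, numpy 2.4.6, pandas 2.3.3 and scipy 1.17.1 and were tested on simulated data. There is 1 library per mark and time, so no test was made, and PCR copies cannot be told from separate molecules, since no molecular identifiers were used here. The regions, lists and alternatives were chosen with earlier results of these data known. Genes and sequences at the regions were not analysed here. Alternatives to merging, fold, island number, distance, overlap and scaling are given in the closing section.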

Additional observations from a re-analysis of the deposited data

How the results depend on the processing

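Of 135 values recomputed over 30 results and 12 settings, 51 moved by less than their interval (or, for counts, within 1.5 times), 79 moved further and 5 changed sign. No paired analysis was possible because each mark and time has 1 library. Counts past 2-fold under other scalings, unmerged touching islands, the converse class throughout and regions of another mark that touch no H4K16ac region outside the 2-and-7-day class were chosen after seeing the data. Unless stated, the cause of a shift was not tested.

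Shares below are of 2-and-7-day regions touched by H3K9ac, then H3K27ac, in the order no doxycycline, 2 days, 7 days. Merging across gaps of 1 kb left 7578 regions, median length 5800 bp, 58.8% of length in stained bands (46.2% for the converse class), a 7-over-2-day log2 ratio of 0.19, H3K9ac 47.8%, 53.1% and 54.6%, and the 2-and-7-day-only pattern at 8.74% (H3K9ac) and 1.10% (H3K27ac). H4K16ac islands of at least 2-fold left 6628 regions and 8149 converse regions, 5000 bp, 53.9% stained, 0.11, H3K9ac 52.5%, 59.4% and 60.6% with the pattern at 10.3%, and H3K27ac 34.3% and 36.0% without doxycycline and at 7 days. The same number of islands per list, 86103, gave 13969 regions, 5600 bp, 54.8% stained, 0.20, H3K9ac 53.4%, 60.1% and 60.5%, and H3K27ac 36.5%, 36.0% and 38.4%. No untreated island within 2 kb left 8362 regions, 57.9% stained, H3K9ac 47.1%, 53.4% and 53.9%, and H3K27ac 31.9%, 31.6% and 33.8%. Over these 4 settings and unmerged touching islands (11476 regions), stained bands held more of the 2-and-7-day than of the converse length.

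Requiring another mark to cover 20% of a region gave H3K9ac 44.4%, 48.5% and 51.5% (pattern 8.49%) and H3K27ac 30.8%, 29.4% and 26.6% (pattern 0.999%). Islands of the other mark of at least 2-fold gave 41.0%, 45.7% and 43.0% (pattern 7.41%), and 30.8%, 30.7% and 33.9% (pattern 1.69%). Regions of 5 kb or more gave 51.1%, 58.3% and 59.3% (pattern 10.6%), and 32.2% and 31.7% for H3K27ac without doxycycline and at 2 days.

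With library size taken from the reads in islands, 95.9% of regions would pass without doxycycline, and 91.3% with the 7-day reads in place of the 2-day reads. The same sizes turned the H4K16ac log2 ratio to -0.26 and the H3K27ac 2-day ratio to 0.022, and gave -0.13 for H3K9ac and -0.22 for H3K27ac at 7 days. Per kb of island the H4K16ac ratio was -0.41, H3K9ac -0.034 and -0.18, and H3K27ac 0.14 and 0.41 at 2 and 7 days. In regions touching no other H4K16ac class, H3K9ac was -0.20 and -0.085. Depth limits every absence: an absent island says that a count stayed under the threshold, and the count itself is not known.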

Other observations

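Chromosome X was left out of the regions above and is given here as values. It held 1157 merged H4K16ac regions, of which 79 (6.83%, 5.44 to 8.44) had an island at 2 and 7 days and none without doxycycline, with a median length of 4600 bp. The converse pattern was held by 94 (8.12%, 6.62 to 9.85) and an island in all 3 lists by 68 (5.88%, 4.59 to 7.39). Regions only in the untreated list were 407 (35.2%, 32.4 to 38.0), against 17.9% on chromosomes 1 to 22.

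Regions in the lists without doxycycline and at 2 days had 51.3% of their length in stained bands, against 50.01% of the chromosomes.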
